A study of Mus musculus with 16 samples.

Results

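The genes followed here carry iron into the cell, store it, move it into mitochondria and send it out. They are Tfrc, Slc11a2, Steap3, Slc25a37, Fth1, Ftl1, Slc40a1, Aco1 and Ireb2, chosen by name for these roles. All 9 were found among the 22907 genes that the array probes could be named for, through the RefSeq accession of each probe. Each gene was read by its brightest probe, and all 9 of these probes were well above background on all 16 arrays. The value of a gene is the log2 of its signal intensity over the 75th percentile of its array, so that 0 is the level of that percentile and a difference of 1 is a doubling of signal.

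RNA came from brown adipose tissue (BAT) and gonadal white adipose tissue (gWAT) of male C57BL/6NCrSlc mice, with 4 arrays for each tissue and genotype. In Adipo-Pgam1 KO mice (Adipoq-Cre; Pgam1 flox/flox), Cre recombinase driven by the adiponectin promoter deletes the glycolytic enzyme gene Pgam1 in adipocytes, so that the other cells of the tissue keep the gene. Controls were littermates, called wild-type in the labels and Cre-negative Pgam1 flox/flox in the methods. The arrays of the deletion are called knockout BAT and knockout-labelled gWAT here. Mice were 16 weeks old, save replicate 4 of knockout BAT and of knockout-labelled gWAT, at 14 weeks. Whether BAT and gWAT arrays of the same number came from 1 mouse is not stated.

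Cells take up iron bound to transferrin through the transferrin receptor, reduce it in the endosome and pass it into the cytosol. It is then built into haem and iron-sulphur clusters in mitochondria, stored in ferritin or exported by ferroportin. The iron regulatory proteins encoded by Aco1 and Ireb2 bind hairpins in the messages of ferritin, ferroportin and the transferrin receptor, and in this way match translation and message stability to the iron in the cell. Brown adipocytes, which are dense in mitochondria, have a high demand for iron in respiratory chain enzymes.

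Several facts about the arrays bear on the values. Pgam1 was lower in knockout BAT, at 6.20 ± 0.17 (SD, n = 4) against 7.94 ± 0.11 (SD, n = 4) in controls. In gWAT it was higher in knockout-labelled arrays, at 6.31 ± 0.25 (SD, n = 4) against 5.36 ± 0.29 (SD, n = 4), a log2 change of 0.95 (limma, adjusted p = 0.0139), so each direction in gWAT rests on the label. In the same labelled arrays 9.97% of all genes tested were higher, and so were 4 of 5 brown adipocyte markers tested in gWAT. Among them were Cidea by 3.41 and Cox7a1 by 2.18 (limma, adjusted p = 0.00126 and 0.00708). Ppargc1a went the other way without passing, from -0.57 in controls to -1.09, and Zic1 was not well above background on any gWAT array. Where the Pgam1 probe lies relative to the deleted exons was not checked here. The 75th percentile of signal ran from 401.3 to 451.3 in BAT control arrays and from 650.2 to 916.2 in knockout BAT. Arrays lay on 3 slides. BAT control replicates 1 to 3 were on slide 1, and slide 2 held BAT control replicate 4, all 4 knockout BAT arrays and gWAT control replicates 1 to 3. Slide 3 held gWAT control replicate 4 and all 4 knockout-labelled gWAT arrays, and was scanned on another day than slides 1 and 2. In gWAT, slide and scan day thus nearly follow the genotype label. In BAT, slide nearly follows genotype in the same way, since only control replicate 4 shares a slide with knockout BAT. The tissue labels could be read in the arrays, since Ucp1, the uncoupling protein of brown fat, was well above background on all 4 BAT control arrays and on 0 of 4 gWAT control arrays. It was well above background on 3 of 4 knockout-labelled gWAT arrays.

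In knockout BAT, Tfrc and the mitochondrial iron importer Slc25a37 were more than 2-fold higher than in controls, while Aco1 and the ferritin heavy chain Fth1 were lower. These 4 of the 9 genes passed an adjusted p of 0.05, 2 higher and 2 lower, where 61.5% of the 14277 genes tested in BAT passed, 27.5% higher and 34% lower. The median log2 change was -0.22 over the 9 genes and -0.08 over all genes tested. The split moved with the scaling, to 4 higher and 1 lower with quantile normalization. It was 3 and 1 with spike-in controls, and 0 and 7 with Actb and Rplp0. The median of all genes was 0.02, 0.47 and -0.67 under these scalings, in that order. Spike-in controls and Actb and Rplp0 thus moved all genes, and the splits under them are not a result about the 9. A share of 4 in 9 is below the 61.5% of all genes, so the number of genes that passed is not a result about these genes. In gWAT, 0 of the 9 passed in limma, where 17.8% of 14146 genes passed, 9.97% higher and 7.85% lower, and their median was -0.07 against 0.05 over all genes.

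**Figure D1:**
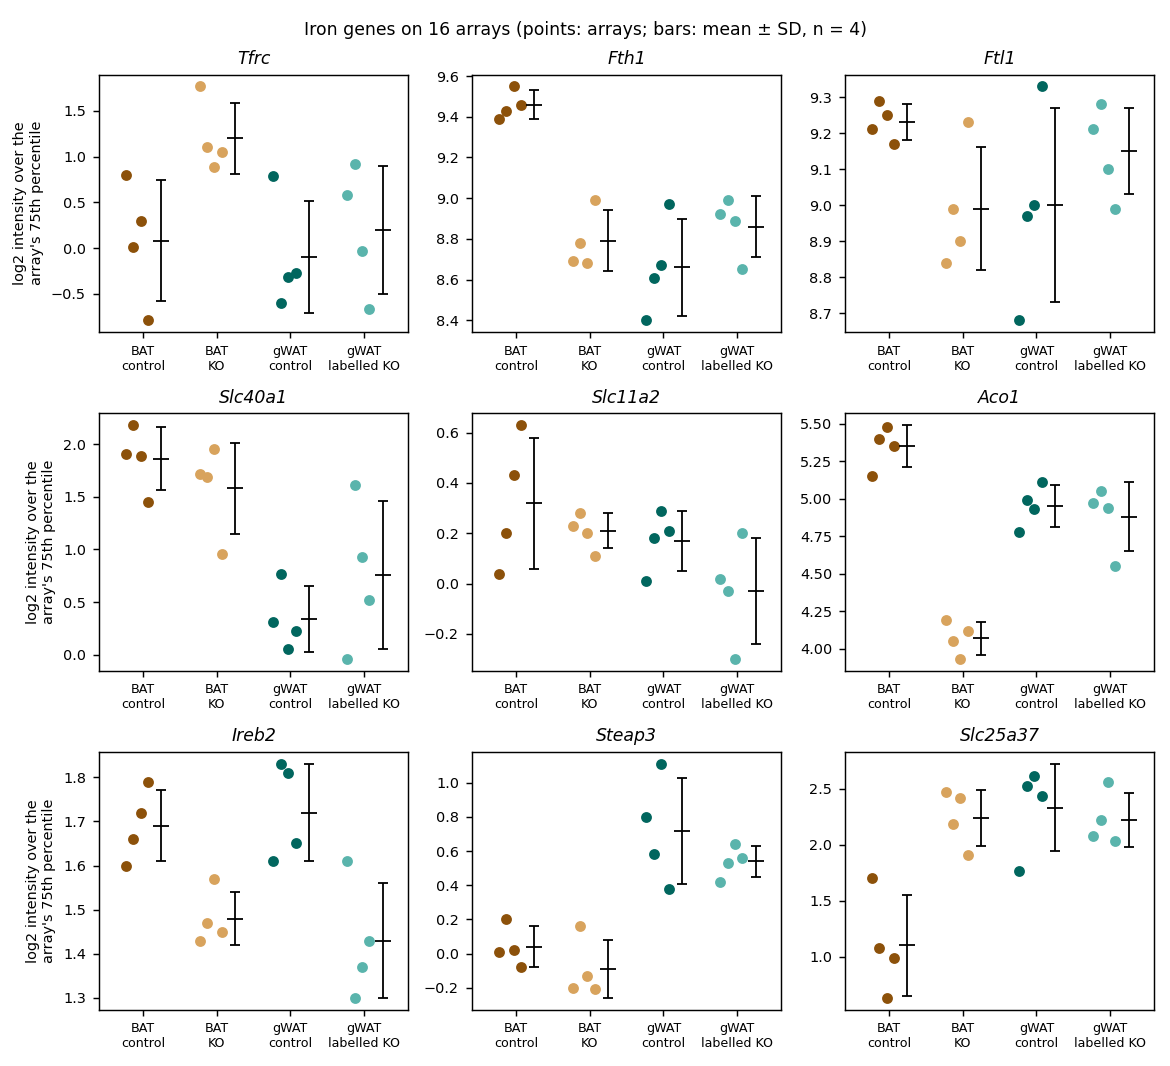
Log2 intensity over the 75th percentile of the array (vertical axis) for 9 iron genes in BAT and gWAT of littermate controls and of mice labelled knockout. Points are single arrays and bars are the mean ± SD of 4 arrays. In BAT the groups are apart for Tfrc, Fth1, Aco1, Ireb2 and Slc25a37, and each panel has its own scale.

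Tfrc encodes transferrin receptor 1, which brings transferrin-bound iron into the cell. Its gene lies on chr16:32608896-32632794 (GRCm38). In BAT, the log2 intensity of Tfrc was 0.80, 0.01, 0.30 and -0.79 in the control arrays, and 1.77, 1.11, 0.89 and 1.05 in knockout BAT. All 4 knockout arrays were above all 4 controls, although the lowest of them was close to the highest control. Tfrc rose by a log2 change of 1.12 (standard error 0.33, limma, adjusted p = 0.0165), a 2.18-fold higher signal, with a two-sided exact permutation p of 0.0286, the smallest that 4 arrays against 4 allow. The spread of Tfrc among the controls was wide (SD 0.66).

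Under 2 of 24 alternatives Tfrc in BAT kept its direction but no longer passed. The change was 0.53 (adjusted p = 0.19) when arrays were scaled by Actb and Rplp0, and 0.80 (adjusted p = 0.0528) for the mean of both Tfrc probes. The second probe alone changed by 0.48 (standard error 0.31, adjusted p = 0.21), less than the first. Within slide 2, where a single control array (the lowest of the 4) can be compared, the difference was 1.99, with no spread of controls to set it against.

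The start of Tfrc is shown because this receptor is the entry point of iron and rose in BAT, and because a hypoxia-response core, the letters ACGTG, begins 2 bases before its annotated start. The 30 bases below are from the RefSeq promoter window of Tfrc (GRCm38.p6, chr16:32608876-32608905, plus strand, 5′ to 3′), with the ACGTG in capitals.
Tfrc: gagcacctcggtaggtgtACGTGcggaagg
Windows of 300 bases around a start were at hand for 6 of the 9 genes, 11 windows in all, and ACGTG was searched on both strands. It was found in 2 of the 11, both windows of Tfrc that overlap at this same place, and in 19.6% of all 32851 windows. The share among these windows was close to that of all windows. Such a match is a description of letters. Binding there was not measured, and a link to the change of Tfrc in BAT was not tested.

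In gWAT, Tfrc ran from -0.60 to 0.79 in controls and from -0.67 to 0.92 in knockout-labelled arrays. The groups overlapped fully, with a log2 change of 0.30 (95% interval -0.60 to 1.20, adjusted p = 0.631). Although Tfrc passed in BAT and not in gWAT, the change did not differ between the tissues beyond error (interaction in limma -0.82, standard error 0.56, adjusted p = 0.237).

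Slc25a37, also called mitoferrin, carries iron across the inner mitochondrial membrane and is best known from red cell precursors. In BAT its log2 intensity was 1.70, 1.08, 0.63 and 0.99 in controls. In knockout BAT it was 2.47, 2.18, 2.42 and 1.91. The groups did not overlap, and Slc25a37 rose by 1.14 (standard error 0.23, limma, adjusted p = 0.00233), a 2.21-fold higher signal that no omitted array took below the threshold.

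The other probes of Slc25a37 changed by 1.22 (adjusted p = 0.00405) and by 0.83 (adjusted p = 0.111), the last being well above background on 11 of 16 arrays. Scaled by Actb and Rplp0, the rise was 0.55 and did not pass (adjusted p = 0.0633). Values in gWAT were 1.76, 2.52, 2.61 and 2.43 in controls against 2.08, 2.22, 2.56 and 2.03 in knockout-labelled arrays, a log2 change of -0.11 (95% interval -0.59 to 0.38). The genotype change of Slc25a37 differed between gWAT and BAT by -1.25 (limma, interaction with standard error 0.33, adjusted p = 0.00588), and by -0.72 with Actb and Rplp0 scaling (adjusted p = 0.0601). Ordered by level, gWAT control, knockout BAT and knockout-labelled gWAT overlapped at means of 2.33, 2.24 and 2.22, and BAT control stood apart below them at 1.1.

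Red blood cell markers were followed beside Slc25a37 because that gene is strong in erythroid cells. None of the 6 red cell markers tested passed in either tissue (limma). Their summed level ran from 581 to 2420 in BAT controls and from 949 to 1130 in knockout BAT, on the linear scale of the normalized signal. Alas2, the erythroid form of the first enzyme of haem synthesis, changed by -0.49 in BAT (adjusted p = 0.405).

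Steap3 is the endosomal reductase that turns ferric into ferrous iron after transferrin uptake. In BAT its level was 0.04 ± 0.12 (SD, n = 4) in controls and -0.09 ± 0.17 (SD, n = 4) in knockout BAT, with overlapping groups and a change of -0.13 (95% interval -0.39 to 0.13). In gWAT the change was -0.18 (95% interval -0.56 to 0.20). BAT minus gWAT, Steap3 was -0.68 in controls (limma, adjusted p = 0.00623), though -0.35 with Actb and Rplp0 scaling (adjusted p = 0.105), and -0.63 in mice labelled knockout (adjusted p = 0.00298), so gWAT held the higher level in both genotypes.

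Slc11a2 encodes the ferrous iron transporter DMT1, which moves iron out of the endosome. Its brightest probe stood at 0.32 ± 0.26 (SD, n = 4) in BAT controls and 0.21 ± 0.07 (SD, n = 4) in knockout BAT. The change was -0.12 (95% interval -0.43 to 0.19) in BAT and -0.20 (95% interval -0.52 to 0.12) in gWAT.

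The 4 probes of Slc11a2 disagreed. Probe A_52_P196476, which is designed on another RefSeq transcript than the brightest, fell by 2.07 in BAT (standard error 0.15, limma over all probes, adjusted p = 1.72e-05). Its mean level was 0.86 in BAT controls, -1.21 in knockout BAT, -1.50 in gWAT controls and -0.47 in knockout-labelled gWAT. Its genotype change differed between the tissues by 3.10 (standard error 0.40, adjusted p = 5.31e-05), more than that of any brightest member probe. Of the others, one changed by -0.68 in BAT (adjusted p = 0.00374) and one by 0.13 (adjusted p = 0.52). Probes were not matched to exons here, so which transcripts each one reads was not tested.

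**Figure D2:**
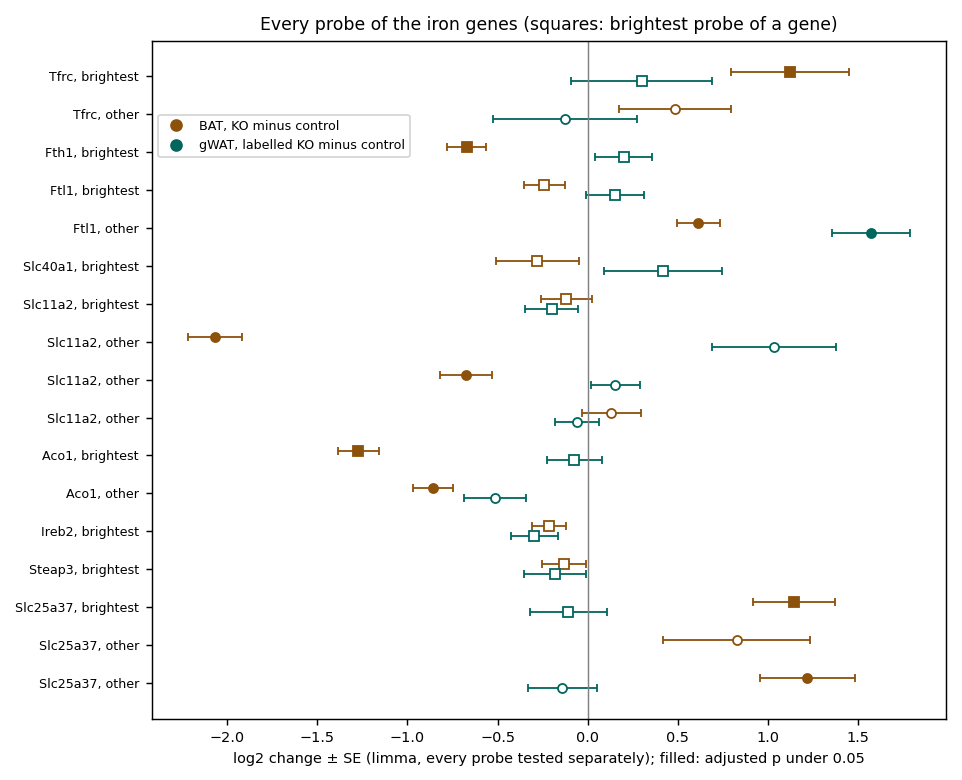
Log2 change ± SE of each of the 17 probes for the 9 iron genes (horizontal axis) in BAT and in gWAT, with every probe tested separately in limma. Squares are the brightest probe of a gene, circles the others, and filled symbols passed an adjusted p of 0.05. The probes of Slc11a2 and Ftl1 part from one another, while the Aco1 probes fall on the same side in BAT. One Slc25a37 probe was not tested in gWAT.

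Ferritin stores iron in a shell of heavy and light chains. The heavy chain gene Fth1 had a log2 intensity of 9.39, 9.43, 9.55 and 9.46 in BAT controls and of 8.69, 8.78, 8.68 and 8.99 in knockout BAT. Every knockout array was below every control, and Fth1 fell by 0.67 on the log2 scale (standard error 0.10, limma, adjusted p = 0.000509), a relative level of 0.628. Its direction depended on the scaling. Under quantile normalization it was 0.25 (adjusted p = 0.0209), the opposite way, and under spike-in scaling it was -0.12 (adjusted p = 0.355).

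BAT control arrays held the highest Fth1, above each of the other 3 groups, whose means were 8.86, 8.79 and 8.66 and whose ranges overlapped. This order did not hold under quantile normalization, where BAT control was 0.25 below knockout BAT and differed from gWAT control by -0.10. In gWAT, Fth1 changed by 0.20 (95% interval -0.15 to 0.55, adjusted p = 0.386). The genotype change differed between gWAT and BAT by 0.87 (limma, interaction with standard error 0.18, adjusted p = 0.00107), but by -0.07 under quantile normalization (adjusted p = 0.57) and by 0.56 with the slide as a fixed block (adjusted p = 0.121).

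The light chain gene Ftl1 stood at 9.21, 9.29, 9.25 and 9.17 in BAT controls and at 8.84, 8.99, 8.90 and 9.23 in knockout BAT. The lowest 3 were knockout arrays, and replicate 4, from the 14-week-old mouse, lay within the controls. The change was -0.24 (95% interval -0.48 to 0.003, adjusted p = 0.0795) and passed without that array, at -0.32 (adjusted p = 0.0184). It turned the other way under quantile normalization, at 0.71 (adjusted p = 8.33e-05), and under spike-in scaling, at 0.31 (adjusted p = 0.0331).

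A second Ftl1 probe, A_55_P1983959, moved the other way in BAT, by 0.61 (standard error 0.12, limma over all probes, adjusted p = 0.00233). In gWAT it was 6.47 ± 0.34 (SD, n = 4) in controls and 8.04 ± 0.31 (SD, n = 4) in knockout-labelled arrays, a change of 1.57 (adjusted p = 0.00283), whereas the brightest probe changed by 0.15 (adjusted p = 0.533 over genes). Mice carry processed copies of the ferritin genes that are close to them in sequence, and whether either probe also reads such copies was not tested. The level of Ftl1 is uncertain to that extent.

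Slc40a1 encodes ferroportin, the iron exporter. Its log2 intensity was 1.91, 2.18, 1.89 and 1.45 in BAT controls, and 1.72, 1.69, 1.95 and 0.96 in knockout BAT. In gWAT it was 0.31, 0.77, 0.06 and 0.23 in controls, and -0.04, 1.61, 0.93 and 0.52 in knockout-labelled arrays. Genotypes overlapped in both tissues, with a change of -0.28 (95% interval -0.81 to 0.25) in BAT and of 0.42 (95% interval -0.33 to 1.16) in gWAT, where the labelled arrays spread most (SD 0.70).

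Slc40a1 differed between the control tissues. All 4 BAT controls were above all 4 gWAT controls, by 1.52 on the log2 scale (standard error 0.20, limma, adjusted p = 0.000214), a 2.87-fold higher signal. Within slide 2, with 1 BAT control array, the difference was 1.07 (adjusted p = 0.0829). Between the tissues of mice labelled knockout it was 0.82, with overlapping groups (adjusted p = 0.0821). Between the same controls, 29.3% of all genes tested were lower in BAT, as were 9 of 10 macrophage markers. The part of cell types in the level of Slc40a1 was not tested.

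Aco1 encodes cytosolic aconitase, which becomes iron regulatory protein 1 when it loses its iron-sulphur cluster. In BAT its log2 intensity was 5.15, 5.40, 5.48 and 5.35 in controls, and 4.19, 4.05, 3.93 and 4.12 in knockout BAT. The groups were far apart relative to their spread. Aco1 fell by 1.27 (standard error 0.11, limma, adjusted p = 2.67e-05), a relative level of 0.414, and it passed under all 24 alternatives, between -1.86 with Actb and Rplp0 scaling and -0.72 with spike-in scaling.

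In gWAT, Aco1 was 4.95 ± 0.14 (SD, n = 4) in controls and 4.88 ± 0.23 (SD, n = 4) in knockout-labelled arrays, a change of -0.07 (95% interval -0.41 to 0.26). The genotype change differed between gWAT and BAT by 1.20 (limma, interaction with standard error 0.17, adjusted p = 0.0001), and this passed under all 29 alternatives tried. The order of levels ran from BAT control, through both gWAT groups, which overlapped, to knockout BAT, with no overlap at either end. The upper step did not hold under quantile normalization, where BAT control minus gWAT control was -0.02. The dimmer Aco1 probe changed by -0.86 in BAT (adjusted p = 0.000243) and by -0.51 in gWAT (adjusted p = 0.065), and for it the difference between the tissues did not pass (0.35, adjusted p = 0.175).

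Ireb2, iron regulatory protein 2, is controlled by iron through the breakdown of its protein. In BAT its level was 1.60, 1.66, 1.72 and 1.79 in controls, and 1.43, 1.47, 1.57 and 1.45 in knockout BAT. In gWAT it was 1.61, 1.83, 1.81 and 1.65 in controls, and 1.61, 1.30, 1.37 and 1.43 in knockout-labelled arrays. In both tissues the controls were above the other group, with the closest pair in gWAT equal at this rounding. The changes were -0.22 (95% interval -0.41 to -0.02, adjusted p = 0.0586) in BAT and -0.30 (95% interval -0.57 to -0.02, adjusted p = 0.121) in gWAT, and neither passed in limma over all genes.

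The groups did not overlap for 5 of the 9 genes in BAT, where 57.1% of genes tested did not overlap, and for 1 of 9 in gWAT, where 24.2% did not. At an unadjusted p under 0.05 in gWAT, 1 gene, Ireb2, passed in limma and 1 gene in the methods' t-test, which called 0 after adjustment. Some settings called members in gWAT. With spike-in scaling Fth1 was 0.60 (adjusted p = 0.00267), Ftl1 0.55 (adjusted p = 0.00611) and Aco1 0.32 (adjusted p = 0.0408), while the median of all genes was 0.44. Quantile normalization (adjusted p = 0.0371) and 1 fit over all 16 arrays (adjusted p = 0.0292) called Ireb2, at -0.37 and -0.30.

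**Figure D3:**
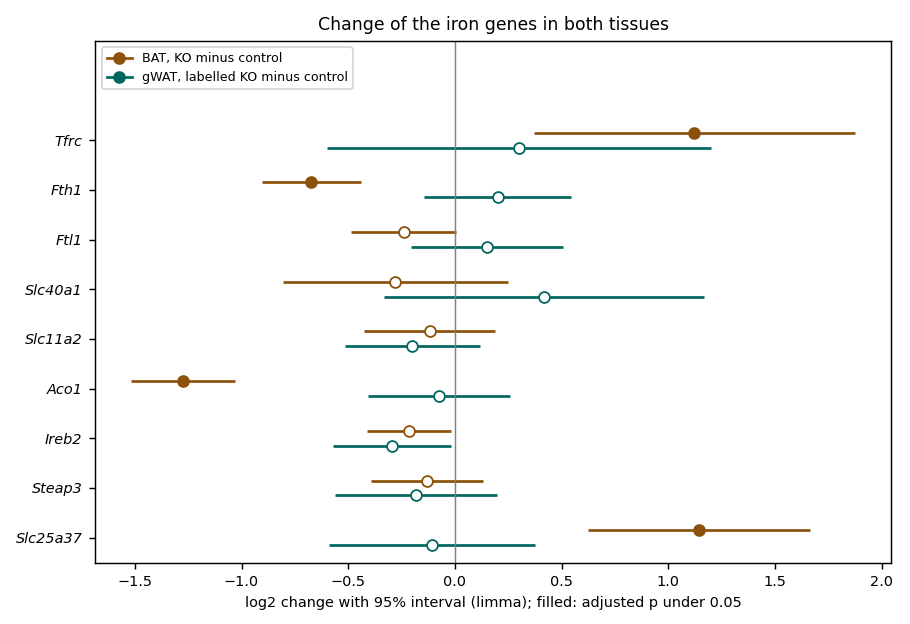
Log2 change of 9 iron genes (horizontal axis) with 95% interval from limma, in BAT (knockout minus control) and gWAT (knockout-labelled minus control), 4 arrays against 4. Filled points passed an adjusted p of 0.05. The 4 filled points are Tfrc, Fth1, Aco1 and Slc25a37 in BAT, and no gWAT point is filled.

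The genotype change differed between the tissues for 3 of the 9 genes, Fth1 and Aco1 being more negative and Slc25a37 more positive in BAT, where 48.3% of 14817 genes differed, 27.4% with the more positive change in gWAT and 21% with the more negative. With the slide as a fixed block, Aco1 alone passed, at 1.04 (adjusted p = 0.0216), and Slc25a37 was -1.46 (adjusted p = 0.0761). That fit rests on the single control array of each tissue that shares a slide with its other genotype.

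Scaling moves all genes together, so the 4 changes in BAT were also set against the median of all genes tested. That median was -0.08 with the 75th percentile, 0.47 with spike-in controls and -0.67 with Actb and Rplp0. Relative to it, Tfrc was 1.20, Slc25a37 1.22, Fth1 -0.59 and Aco1 -1.19. These scalings each subtract a single value per array, so the relative values are the same under all of them by construction. That sameness is no test of the changes. Quantile normalization, which also reshapes the distribution, gave 1.12, 1.18, 0.23 and -1.01.

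**Figure D4:**
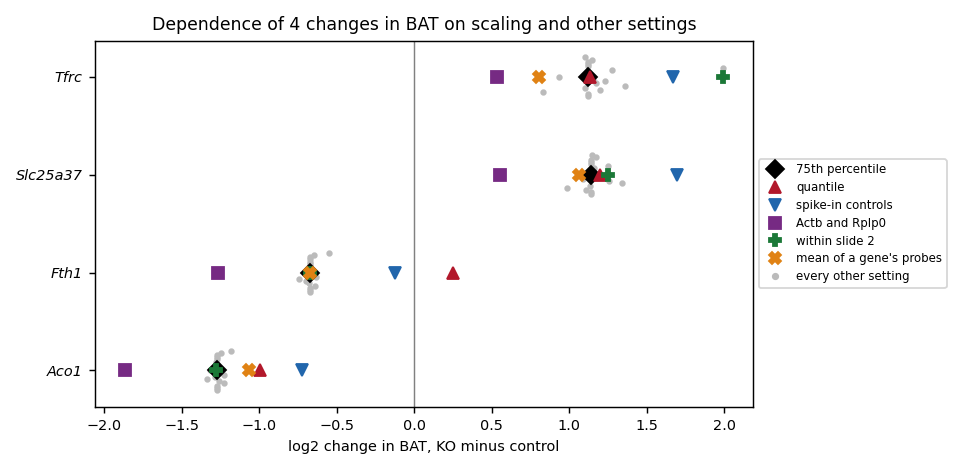
Log2 change in BAT, knockout minus control (horizontal axis), for Tfrc, Slc25a37, Fth1 and Aco1 under every setting tried. Large symbols mark the 75th percentile scaling, other scalings, the mean of a gene's probes and the comparison within slide 2, and small grey points mark the other settings. Fth1 crosses 0 under quantile normalization, at 0.25, while the other 3 genes stay on 1 side.

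Between the control tissues, 5 of the 9 genes differed, where 64.7% of 14301 genes did, 35.4% higher and 29.3% lower in BAT. The groups of these 5 did not overlap, as for 60.8% of all genes. Fth1 (0.80, adjusted p = 0.000905), Slc40a1 and Aco1 (0.39, adjusted p = 0.0184) were higher in BAT, and Slc25a37 (-1.23, adjusted p = 0.00325) and Steap3 were lower. Fth1 and Aco1 did not hold under quantile normalization, at -0.10 and -0.02, and Aco1 lost its call without BAT control replicate 2 (adjusted p = 0.0504) or 3 (adjusted p = 0.0559). Within slide 2, 0 of the 9 passed, with 1 BAT array against 3. This comparison shares its control arrays with both genotype comparisons.

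Between knockout BAT and knockout-labelled gWAT, 3 of the 9 genes differed, where 46.1% of 14446 genes did, 23.4% higher and 22.7% lower in BAT, and the groups did not overlap for 2, against 43.1% of all genes. Tfrc was higher in BAT by 1.0 (limma, adjusted p = 0.0396), with overlapping groups. Aco1 was lower by 0.81 (adjusted p = 0.00168) and Steap3 lower by 0.63. Tfrc lost its call under 9 of 21 alternatives. Among these was leaving out any one of 5 arrays (knockout BAT replicates 1, 2 and 4, and gWAT replicates 3 and 4), with adjusted p up to 0.0979 in limma. Here each tissue lay on its own slide, scanned on its own day, so slide, scan day and tissue cannot be told apart.

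Cell type markers moved with genotype in BAT, where 27.5% of all genes tested were higher and 34% lower. Of 10 macrophage markers 8 were higher in knockout BAT, led by Fcgr1 at 3.79 (adjusted p = 2e-05), and their summed level ran from 30.4 to 43.6 in controls and from 108 to 160 in knockout BAT. Of 6 adipocyte markers 5 were lower, among them Adipoq at -2.0 (adjusted p = 3.58e-05), with a summed level of 2290 to 2520 in controls and 752 to 1040 in knockout BAT. Of 8 brown adipocyte markers 6 were lower, with sums of 4290 to 4620 and 1410 to 2330. Every macrophage and adipocyte marker was well above background on at least 1 array of each group. In bulk tissue, fewer cells of a type and less RNA per cell cannot be told apart, and the part of these cell types in the changes of Tfrc, Slc25a37, Fth1 and Aco1 was not tested.

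Of the other cell types in BAT, few markers were bright enough to test. Their counts stand against the 61.5% of all genes tested in BAT that passed. Past the threshold were 1 of 3 neutrophil markers (Camp, lower), 1 of 3 T and B cell markers (Cd3d, higher), 0 of 5 endothelial markers, 1 of 3 skeletal muscle markers (Acta1, higher by 3.11) and the 1 mesothelial marker tested (Lrrn4, at -2.31). The median change of the 3 skeletal muscle markers was 2.92, with a wide spread. The skeletal muscle sum ran from 0.402 to 1.08 in BAT controls and from 0.86 to 80.5 in knockout BAT. In gWAT, 9.97% of all genes tested were higher in knockout-labelled arrays and 7.85% lower. There 1 of 10 macrophage markers (Cd68) and 4 of 5 brown adipocyte markers were higher, and 2 of 6 adipocyte markers were lower. Past the threshold were 0 of 3 neutrophil, 3 T and B cell, 5 endothelial, 4 skeletal muscle and 4 mesothelial markers. The skeletal muscle sum ran from 3.29 to 24.3 in gWAT controls and from 29.7 to 58.1 in knockout-labelled gWAT, without overlap. Of the 4 skeletal muscle markers tested there, Acta1 was higher, with means of 3.28 and 5.48, and 3 were lower. No epididymis marker was bright enough to be tested.

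The wider iron pathway was read from 6 further lists, of which Cybrd1, Ftmt, Hamp, Hamp2, Hjv and Flvcr2 could not be tested in BAT. Their counts stand against 27.5% higher and 34% lower over all genes tested in BAT, and 9.97% and 7.85% in gWAT. Genes of iron transport and reduction outside the 9 were mostly higher in knockout BAT, with 9 of 12 tested higher and 2 lower and a median of 0.86 against -0.08 for all genes, although Actb and Rplp0 scaling left 3 higher and 4 lower. Tfr2, the second transferrin receptor, fell by 3.12 (standard error 0.40, limma, adjusted p = 0.000205). The metalloreductase Steap1 rose from -2.41 to 0.40 (adjusted p = 5.79e-05). Steap2, among the 9 counted higher, was not well above background on any BAT control array and was tested only through knockout BAT. It was at least 2.53-fold higher, the bound being the dimmest probe well above background on each control array. In gWAT, 3 of 13 passed, all lower in knockout-labelled arrays. They were Steap2 at -1.22, the ferroxidase Heph at -1.11 and Steap4 at -0.81.

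Genes of ferritin turnover and iron sensing included 4 of 7 that were lower in BAT and 0 higher, a total share close to the 61.5% of all genes that passed. Their median was -0.34. Relative to the median of all genes this was -0.26, a value that spike-in scaling cannot change. That scaling lifts all genes and gave 3 higher and 2 lower. Epas1, the hypoxia factor HIF2A, changed by -0.94 (adjusted p = 0.000192) and Ncoa4, the receptor that takes ferritin to autophagy, by -0.78 (adjusted p = 8.29e-05). In gWAT, 1 of 7 was higher and 1 lower, the latter being Herc2, a ubiquitin ligase, which fell by 1.40 (adjusted p = 0.00279).

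Of the hepcidin axis, which sets the body's iron through ferroportin, 4 of 7 genes tested were lower in BAT and 0 higher, a total share close to the 61.5% of all genes that passed. Smad6 changed by -1.37, Bmp6 by -0.91 and Id1 by -0.72. The median of -0.33 was -0.25 relative to all genes, a value that spike-in scaling cannot change. That scaling gave 1 higher and 1 lower. In gWAT 0 of 8 passed in limma.

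Of 12 haem synthesis genes, 9 were lower in knockout BAT and 1 higher, where 34% and 27.5% of all genes were, and their median was -0.82 against -0.08. Spike-in scaling left 4 lower. Abcb10, a mitochondrial transporter, changed by -1.08 (adjusted p = 0.000112), and the pathway enzymes Uros and Ppox by -1.0 and -0.91. Cpox was the one higher, at 0.76 (adjusted p = 0.0137). In gWAT 1 of 12 passed, Urod, at 0.60 (adjusted p = 0.0409).

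Iron-sulphur cluster assembly showed 15 of 22 genes lower and 0 higher in BAT, with a median of -0.56, or -0.48 relative to all genes. Spike-in scaling, which lifts all genes, gave 4 higher and 6 lower. Bola3, Isca1 and Isca2, which finish and deliver mitochondrial clusters, changed by -1.33, -1.24 and -1.17. In gWAT 5 of 22 were higher in knockout-labelled arrays and 0 lower, with a median of 0.47 against 0.05 for all genes. The 5 were led by the chaperone Hspa9 at 1.43, Ciapin1 at 1.28 and Nubp2 at 0.97. Spike-in scaling gave 19 higher, but under it 94.1% of all calls in gWAT were higher. The genotype change was more positive in gWAT than in BAT for 20 of 22 (median 1.02, all genes 0.07), where this held for 27.4% of all genes tested.

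Haem breakdown and transport had 3 of 10 higher and 3 lower in BAT, shares close to those of all genes, and a median of 0.01 against -0.08. Hmox1, haem oxygenase 1, which frees iron from haem, rose by 2.19 in BAT (standard error 0.58, limma, adjusted p = 0.0101) and by 0.95 in gWAT (standard error 0.20, adjusted p = 0.0159). The haem carrier Hpx rose by 2.09 in BAT, where 2 of 4 control arrays measured it, and the haemoglobin carrier Hp changed by -1.12. In gWAT, Blvra, biliverdin reductase, rose by 0.91 and the haem transporter Flvcr2 fell by 1.56.

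**Figure D5:**
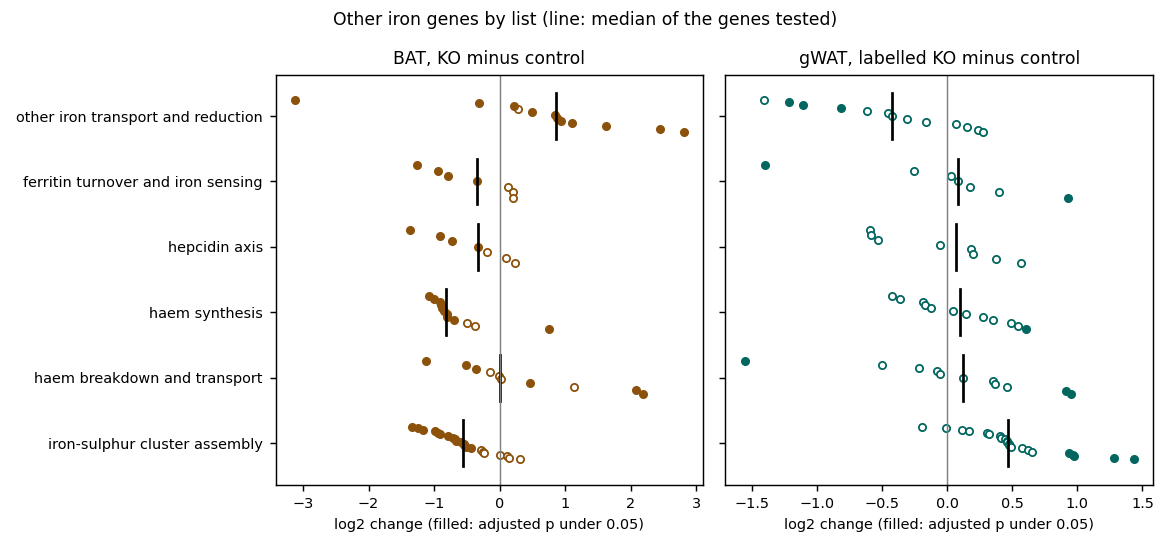
Log2 change (horizontal axis) of each gene tested in 6 lists of the wider iron pathway, in BAT (left) and gWAT (right). Points are genes, filled where the adjusted p in limma was under 0.05, and black lines are the median of a list. Haem synthesis and iron-sulphur cluster assembly lie mostly to the left in BAT, with medians of -0.82 and -0.56, and iron-sulphur cluster assembly to the right in gWAT, with a median of 0.47.

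The difference of the genotype change between the tissues, gWAT minus BAT, was also read by list. Over all genes tested, it passed as more positive in gWAT for 27.4% and as more negative for 21%. In transport and reduction it was -2.75 for Steap1 and -1.98 for Heph, while Steap2 has no measured level in BAT controls and so no value. Ferritin turnover and iron sensing gave -1.06 for Herc2 and 0.97 for Epas1. The hepcidin axis gave 1.56 for Smad6, 1.09 for Bmp6 and -0.76 for Acvr1. Haem synthesis included Urod at 1.5 and Tmem14c at 1.37, with 8 of 12 more positive in gWAT and 0 more negative. Iron-sulphur assembly was led by Bola3 at 2.30, Ciapin1 at 1.86 and Isca2 at 1.75. In haem breakdown, Blvra differed by 1.06 and Hp by 0.91. All of the values given passed an adjusted p of 0.05 in limma.

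Between the control tissues, BAT minus gWAT, 35.4% of all genes tested were higher in BAT and 29.3% lower. Against these shares, iron-sulphur assembly had 21 of 22 higher in BAT and 1 lower (median 1.25, all genes 0.10). Among them were Ciapin1 at 3.38 and Bola3 at 2.28. Haem synthesis had 8 of 12 higher and 0 lower, led by Tmem14c at 2.25, Urod at 1.45 and Abcb10 at 1.36. Transport and reduction had 2 of 13 higher and 8 lower, with Heph at -4.76, Trf, transferrin itself, at -4.43, and Steap2 at least 12-fold lower in BAT. The remaining lists were mixed. Ferritin turnover and iron sensing held Fbxl5 at -1.0 and Epas1 at 0.78, the hepcidin axis held Bmp2 at -1.69, Acvr1 at -1.29 and Bmp6 at 1.25, and haem breakdown held Cd163 at -2.65, Flvcr1 at 1.57 and Flvcr2, at least 9-fold lower in BAT.

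Between the tissues of mice labelled knockout, BAT minus gWAT, 23.4% of all genes tested were higher in BAT and 22.7% lower. Transport and reduction again had more genes lower in BAT, 7 of 12 against 2 higher. The largest changes were Trf at -3.06, Slc39a14, a zinc and iron importer, at 2.93 and Heph at -2.78. Iron-sulphur assembly had 6 of 22 higher and 2 lower, among them Ciapin1 at 1.51 and Fdxr at 0.88. Haem synthesis had 2 of 12 higher and 1 lower, namely Tmem14c at 0.88, Abcb10 at 0.40 and Alas2 at -1.34. The other lists included Fbxl5 at -0.87 and Ncoa4 at -0.76, then Tmprss6 at -2.18, Bmp2 at -1.44 and Hamp2, at least 2.79-fold lower in BAT, and Flvcr2 at -2.27, Hp at -1.52 and Flvcr1 at 1.27.

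The genes most like Aco1 and Slc25a37, the members with the largest difference between the tissues, were sought among the 12357 genes well above background on all 16 arrays. Those with the highest Pearson correlation with Aco1 were Svip (0.984), Tmem205 (0.977) and Acadsb (0.974). For Slc25a37 they were Nipsnap3b (0.908), Bid (0.902) and BC048403 (0.896). These are descriptions over 16 arrays that share 4 groups, slides and scaling.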

How the data were processed

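BAT and gWAT RNA was hybridized to 16 one-colour Agilent arrays, with 4 arrays per group. The labels give 100 ng of RNA per array and the methods give another amount. The authors deposited scanner files whose processed signal intensity, from Agilent Feature Extraction 10.7.1.1, is background-subtracted, and a table of normalized intensities close to these signals over their array's 75th percentile. Of 62976 spots per array, 59305 were not controls, giving 56605 probes. Of 35886 probes with a RefSeq accession, 91.9% were named through RefSeq (GRCm38), and 23616 probes in all stayed unnamed. No spot was saturated, and up to 98 irregular spots per array were left out.

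Here, intensities were put on the log2 scale relative to the 75th percentile of the array. Each gene was its brightest probe, and was tested where either group compared had it well above background on each of its 4 arrays. Comparisons used limma 3.58.1 (R 4.3.3) with Benjamini-Hochberg adjustment over all genes tested, and exact two-sided permutation tests for single values. The fits were tested on simulated data. Python 3.11.15 was used for the tables. Precision is limited by the number of arrays.

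Alternatives were normexp (offset 50), quantile, median, spike-in and Actb and Rplp0 scaling, the authors' table, no filter, a stricter filter, the mean of a gene's probes, slide and replicate blocks, within-slide fits, 1 fit over 16 arrays, the methods' t-test and leaving out each array. Testing every probe separately was chosen after seeing the data. The 9 genes and the lists of iron and marker genes were chosen with earlier results of these data known. Genes named are the 9, and from each iron list those past the threshold with the 3 largest changes per comparison. Some genes that this rule names are not reported here. Cpox, Alas2 and the marker genes were named after their values were seen.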

Additional observations from a re-analysis of the deposited data

Results flagged for a closer look

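The genotype change of 3 of the 9 iron genes differed between the tissues in limma's interaction test, where 48.3% of the 14817 genes tested did. The share among the 9 is the lower one, so the count is not a result about these genes. The value, gWAT minus BAT, was 0.87 for Fth1 (adjusted p = 0.00107), 1.20 for Aco1 (adjusted p = 0.0001) and -1.25 for Slc25a37 (adjusted p = 0.00588). Behind these lay changes in BAT of -0.67, -1.27 and 1.14 and changes in gWAT of 0.20, -0.07 and -0.11, the gWAT values resting on a label that Pgam1 went against. Under quantile normalization the difference between the tissues for Fth1 was -0.07 (limma, adjusted p = 0.57). No array stood apart from the other 3 of its group in any of the 36 sets of values examined, 9 genes in 4 groups, although chance would give about 1 in 20.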

How the results depend on the processing

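The log2 change of some genes turned direction under an alternative. In BAT, the turned values were Fth1 0.25 and Ftl1 0.71 (quantile normalization), Ftl1 0.31, Slc40a1 0.27, Slc11a2 0.43, Ireb2 0.33 and Steap3 0.42 (spike-in scaling), Ftl1 0.19 (mean of a gene's probes), and Slc40a1 0.13 (slide as a fixed block and within slide 2). In gWAT they were Aco1 0.047 and Slc25a37 0.013 (median centring), Slc11a2 0.19, Aco1 0.32, Ireb2 0.098, Steap3 0.21 and Slc25a37 0.29 (spike-in scaling), Slc11a2 0.23 (mean of probes), and Fth1 -0.11, Ftl1 -0.19 and Steap3 0.16 (slide as a fixed block and within slide 3). Leaving out each array, Aco1 in gWAT ran from -0.13 to 0.036. For the difference between the tissues, they were Slc11a2 0.026 (normexp), Fth1 -0.071 and Ftl1 -0.50 (quantile normalization), Slc11a2 0.012, Ireb2 0.012 and Steap3 0.043 (median centring), Slc11a2 0.45, Ireb2 0.45 and Steap3 0.48 (Actb and Rplp0), Slc11a2 0.92 (mean of probes), and Ftl1 -0.0050, Slc11a2 0.19, Ireb2 0.089 and Steap3 0.17 (slide as a fixed block). Leaving out each array, Slc11a2 ran from -0.18 to 0.013 and Steap3 from -0.16 to 0.078. Between control tissues, they were Fth1 -0.10, Ftl1 -0.57 and Aco1 -0.017 (quantile normalization), Ireb2 0.0059 (median centring), Tfrc -0.050 and Slc11a2 -0.080 (spike-in scaling), Ireb2 0.30 (Actb and Rplp0), Ftl1 -0.021 (mean of probes), and Tfrc -0.75 and Ireb2 0.036 (slide as a fixed block and within slide 2). Leaving out each array, Tfrc ran from -0.060 to 0.48 and Ireb2 from -0.071 to 0.0034. Between tissues of mice labelled knockout, they were Ireb2 -0.0063 and Slc25a37 -0.033 (median centring), Ireb2 -0.026 and Slc25a37 -0.052 (spike-in scaling), and Ireb2 -0.15 and Slc25a37 -0.18 (Actb and Rplp0), and Slc25a37 ran from -0.052 to 0.14 leaving out each array. Of the genes that passed in a comparison, Fth1 in BAT, Fth1 in the difference between tissues, and Fth1 and Aco1 between control tissues turned direction, and the cause was not tested. Over all alternatives, values of genes that had passed kept direction and call 91 times in BAT, with 4 no longer passing and 1 turned, 83 times for the difference between tissues, with 3 and 1, and 106 times between control tissues, with 12 and 2. Between tissues of mice labelled knockout they kept it 54 times, with 9 no longer passing.

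The number of the 9 genes past the threshold moved in BAT from 4 to 7 (Actb and Rplp0). In gWAT it moved from 0 to 1 (quantile normalization, mean of probes, 1 fit over 16 arrays) and 3 (spike-in scaling). For the difference between tissues it moved from 3 to 5 (Actb and Rplp0, mean of probes) and 1 (slide as a fixed block), and between control tissues from 5 to 3 (slide as a fixed block) and 0 (within slide 2). Genes past the threshold in gWAT, 2521, became 4038 (1 fit over 16 arrays), 1384 (median centring), 1138 (no filter), 5810 (spike-in scaling), 184 (slide as a fixed block), 459 (within slide 3) and 1618 (the methods' t-test). Leaving out each array gave 1080 to 3209, with the lower values, 1080, 1283 and 1144, without replicates 1, 2 and 3 of the labelled arrays and 1188 and 1581 without control replicates 2 and 3. For the difference between tissues, 7161 became 3264 (slide as a fixed block), and between control tissues 9252 became 4633 (within slide 2). The share of calls that were higher was 44.8% in BAT but 80.4% with spike-in scaling and 17.7% with Actb and Rplp0. In gWAT it was 55.9%, but 94.1% with spike-in scaling and 71.0% with median centring. Spike-in scaling moved the median of all genes by 0.55 in BAT and 0.40 in gWAT, and Actb and Rplp0 scaling moved it by -0.59 in BAT.

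Correlations of same-numbered BAT and gWAT arrays ran from -0.185 to 0.295 within a genotype. The same number gave the best match for some arrays and not for others, so replicate numbers did not settle whether samples were paired. With a replicate block the numbers of the 9 genes past the threshold were 4 in BAT, 0 in gWAT, 3 for the difference between tissues, 5 between control tissues and 3 between tissues of mice labelled knockout, no change from the fits without it, while the genes past the threshold in gWAT fell from 2521 to 1087. The slide as a block between tissues of mice labelled knockout was not run, since each lay on its own slide. Dim probes limit the second probes of Slc25a37.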
